A study of Homo sapiens with 18 samples.

Results

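Gene expression after a scrambled siRNA (SCR) was compared with expression without siRNA (WT) in cells stimulated with lipopolysaccharide (LPS), a component of the bacterial outer membrane. The comparison used 6 of the 18 libraries of the series, the 3 SCR and the 3 WT libraries with LPS, numbered 4, 5 and 6 in each group, and covered the 16678 of 63677 genes in the table that passed a filter on low counts. All libraries came from THP-1, a human acute monocytic leukaemia line that grows in suspension and is used as a model of monocytes. The series was designed to study a knockdown of TRAFD1 (KD, 25 nM siRNA), and it holds WT, SCR and KD cells with LPS or with medium alone. SCR cells received 25 nM of a scrambled siRNA, and 72 h later both groups were given 10 ng/ml LPS for 4 h. The labels disagree on WT: one field says transfection mix without siRNA and others say untreated, so the effects of the reagent and of the siRNA cannot be told apart. The methods give treatments in triplicate but not whether these were separate cultures, and p-values therefore measure only the spread between these libraries.

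LPS binds the TLR4 receptor complex of monocytes, which releases the transcription factor NF-kB from its inhibitors and switches on cytokine genes together with genes that restrain the response. A scrambled siRNA is a short double-stranded RNA chosen to match no transcript, and it serves as the control for a targeting siRNA. Such RNA is loaded into the RNA interference complex, and double-stranded RNA can also be bound by sensors of the interferon system and by the kinase PKR, one of the kinases that start the integrated stress response.

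The promoters of 3 NF-kB-related genes that were lower in SCR, LTB, NFKB2 and TNIP1, are shown because they hold the letters of an NF-kB motif. Unlike LTB, NFKB2 and TNIP1 missed the threshold of the main edgeR fit, and passed in at least 1 but not all fits paired by replicate number. Both RefSeq starts of LTB match the letters searched for, but they lie at adjacent positions and share the same site. For NFKB2 2 of the 3 starts, and for TNIP1 1 of the 2, do not match. Other forms of the NF-kB motif were not searched for, so a start without a match may hold one. For each gene a start with a match is printed. These are the 250 bases before a transcription start in RefSeq (GRCh38.p14), 5′ to 3′ on the strand of the gene, with capitals for a match to GGGANNTTC on either strand. They lie at chr6:31582426-31582675 (LTB, minus strand), chr10:102395455-102395704 (NFKB2, plus strand) and chr5:151081035-151081284 (TNIP1, minus strand), and the first base of the match lies at -85, -21 and -42 from the start.
LTB: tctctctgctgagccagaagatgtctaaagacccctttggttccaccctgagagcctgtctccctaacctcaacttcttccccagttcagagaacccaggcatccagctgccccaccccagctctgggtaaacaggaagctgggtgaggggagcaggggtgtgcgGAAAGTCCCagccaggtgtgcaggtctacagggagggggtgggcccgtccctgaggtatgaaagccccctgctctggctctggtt
NFKB2: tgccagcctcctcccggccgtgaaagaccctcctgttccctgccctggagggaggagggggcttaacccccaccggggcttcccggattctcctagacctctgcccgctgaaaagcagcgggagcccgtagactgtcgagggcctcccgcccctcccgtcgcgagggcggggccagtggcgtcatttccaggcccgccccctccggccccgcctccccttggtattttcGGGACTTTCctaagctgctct
TNIP1: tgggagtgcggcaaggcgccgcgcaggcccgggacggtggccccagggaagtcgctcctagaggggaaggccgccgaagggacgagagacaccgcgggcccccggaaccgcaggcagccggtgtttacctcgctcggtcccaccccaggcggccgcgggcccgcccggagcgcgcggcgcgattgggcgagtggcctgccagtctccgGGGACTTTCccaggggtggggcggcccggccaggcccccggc

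The motif was chosen after values had been seen. It occurred in 4.18% of the 35116 RefSeq promoters of 300 bases, which run on past the start, in at least 1 promoter of 5.09% of the 27305 genes with a promoter, and in at least 1 promoter of 11 of the 21 genes with a promoter in the list of NF-kB targets described below. Of the 19 genes that differed between SCR and WT, 15 had a promoter in the table and 2, LTB and EIF4G1, held it. Of the 135 that differed in the paired fit, 83 had a promoter and 12 held it. These 12 went both ways. EIF4G1, KIF2C, MNS1, NCAPD3, RBM3, ZFAS1 and ZFP36L1 were higher in SCR, and LTB, MLC1, NFKB2, SGSM2 and TNIP1 were lower. A second motif was TGATGNAA, the C/EBP-ATF element found in stress response genes. It occurred in 3.62% of all promoters, in 4.46% of the genes with a promoter and in 0 of the 15 among the 19. A match describes letters and not a bound site.

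With LPS, WT libraries held 10094675 to 12049859 counts and SCR libraries 8206023 to 14712315. A gene with 0 counts could still have 3, which is 0.209 to 0.378 CPM (edgeR's counts per depth unit, with library totals scaled by TMM), a limit for counting error only, since the table has no molecular identifiers. TNF, a target of LPS signalling, was at 12.7 to 18.7 CPM in WT without LPS and at 132 to 153 CPM with LPS. TRAFD1 ran from 11.6 to 20.3 CPM in WT, 18.7 to 27.4 CPM in SCR and 13.8 to 15.8 CPM in KD with LPS, so that the KD and WT ranges overlapped. The 18 monocyte markers summed to 1747 to 1847 CPM in WT and 1806 to 1925 CPM in SCR, with CEBPA alone under 1 CPM in every library. The 19 markers of other cell types that had a symbol in the table summed to 16.3 to 18.4 CPM in WT and 12.7 to 14.7 CPM in SCR, with CD3E, HBB, PPBP and PF4 at 0 in all 6 libraries, and the part of this difference in the results was not tested. In bulk RNA, fewer cells of a type and less RNA per cell cannot be told apart.

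Under LPS the edgeR quasi-likelihood test, with p-values adjusted by Benjamini-Hochberg, put 19 genes under 0.05, of which 4 were higher and 15 lower in SCR. They make up 0.114% of the genes tested (0.024% higher and 0.0899% lower), and 2285 genes, 13.7%, were under 0.05 before adjustment. WT and SCR libraries of the same number varied together, and with the number as a block 135 genes passed (0.809%), 64 higher (0.384%) and 71 lower (0.426%), including all 19. That count rests on giving the block to all 18 libraries: in a fit with the block for the WT and SCR libraries with LPS alone, chosen after seeing the data, 19 genes passed (0.114%, with 5 higher, 0.03%, and 14 lower, 0.0839%), all among the 135 and 16 of them among the 19 found without a block. JUP and PSTPIP2 were among those that then missed the threshold (edgeR adjusted p 0.0576 for both). DESeq2 on all libraries called 2.12% of the genes it gave an adjusted p, among them 92 of the 135, and DESeq2 on the libraries of the contrast called 4.93%. Among the 19, 16 were protein-coding and 3 were long non-coding RNAs, and all 19 had no overlap between the SCR and WT libraries, as had 22.8% of all genes tested (10.6% higher and 12.2% lower). The median log2 fold change over all genes was 0.0095, and every fold and percentage given for a gene below is the fitted log2 fold change put on a linear scale. No gene passed once SCR replicate 5 was left out, with 1498 genes under 0.05 before adjustment, and the 19 then kept their direction with edgeR adjusted p from 0.0707 to 0.248. Each of the other libraries, when left out, gave between 4 and 16 calls.

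**Figure D1:**
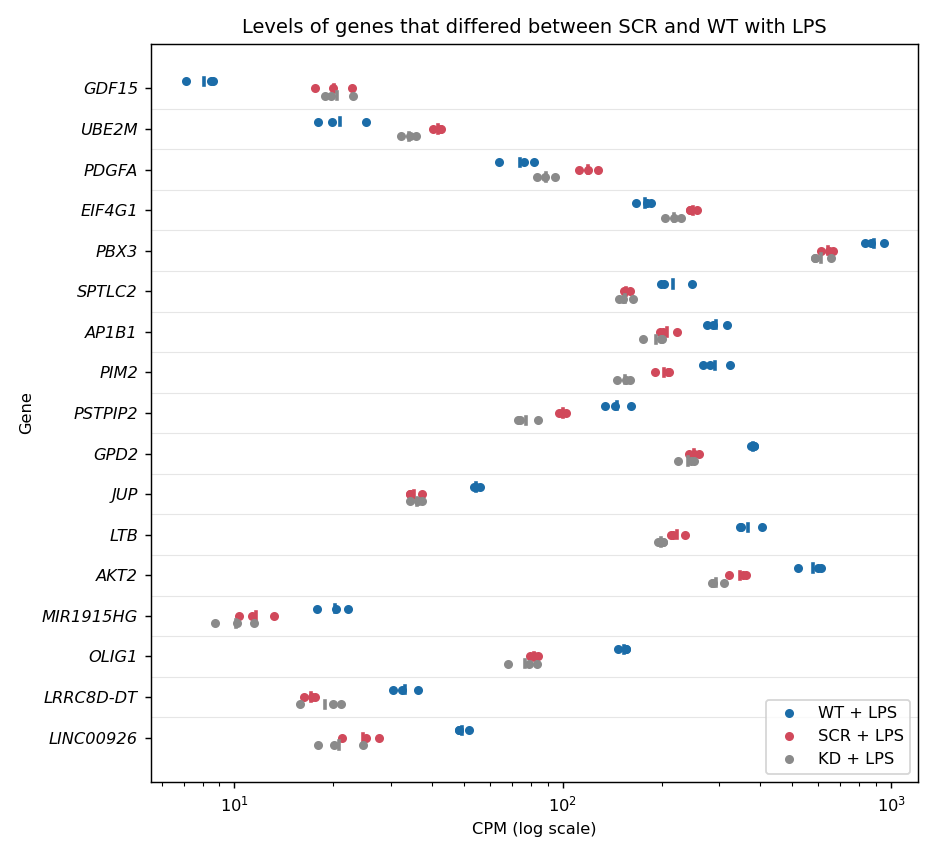
Levels with LPS of 17 of the 19 genes, in CPM on a log scale, for the 3 libraries of WT, SCR and KD (points) with the group mean (short vertical line). In every gene the SCR points lie apart from the WT points. GDF15 ran from 7.10 to 8.62 CPM in WT and from 17.6 to 22.9 CPM in SCR.

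The 4 higher genes were GDF15, UBE2M, EIF4G1 and PDGFA. GDF15 (ENSG00000130513, chromosome 19 of GRCh37, from 18485541 to 18499986), a secreted factor of the TGF-beta family induced by cell stress, was measured at 8.46, 7.10 and 8.62 CPM in WT replicates 4, 5 and 6 and at 17.6, 22.9 and 19.9 CPM in SCR. Every SCR library was more than any WT library, with means of 8.06 ± 0.834 and 20.1 ± 2.62 CPM (SD, n = 3 each) and a level 2.52-fold higher by the fit (log2 fold change 1.33 ± 0.20 SE, edgeR adjusted p 0.00724). It had the fewest counts of the 4, from 85 to 329 per library.

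UBE2M, the conjugating enzyme that passes the ubiquitin-like protein NEDD8 to cullins, lies on chromosome 19 from 59067079 to 59070321. Its level was 19.9, 25.1 and 18.02 CPM in WT and 40.2, 42.5 and 42.2 CPM in SCR. The SCR libraries were nearly equal and were 1.98-fold above WT by the fit, with means of 21.0 ± 3.70 and 41.7 ± 1.25 CPM (SD, n = 3 each), or 0.99 ± 0.16 (SE) on the log2 scale (edgeR adjusted p 0.00885). EIF4G1, the scaffold of the cap-binding complex that starts translation (chromosome 3, from 184032283 to 184053146), was at 185, 181 and 167 CPM in WT and 257, 245 and 245 CPM in SCR. The increase was of 40.0% by the fit (log2 fold change 0.49 ± 0.08 SE, edgeR adjusted p 0.00885).

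PDGFA, a subunit of platelet-derived growth factor (chromosome 7, from 536895 to 559933), was at 76.5, 81.5 and 63.9 CPM in WT and 119, 128 and 112 CPM in SCR. All SCR libraries lay above all WT libraries, 1.62-fold by the fit (log2 fold change 0.69 ± 0.12 SE, edgeR adjusted p 0.0169).

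The lower genes included kinases and enzymes of metabolism. GPD2, the mitochondrial glycerol-3-phosphate dehydrogenase of the glycerol phosphate shuttle (ENSG00000115159, chromosome 2, from 157291802 to 157470247), was at 376, 382 and 382 CPM in WT and 251, 242 and 260 CPM in SCR. WT varied by 3.49 CPM (SD) around its mean of 379.7 and SCR by 9.18 CPM around 251, so that the decrease of 33.9% was far larger than the spread within either group (edgeR log2 fold change -0.60 ± 0.08 SE, adjusted p 0.00724). AKT2, a serine/threonine kinase downstream of PI3K (chromosome 19, from 40736224 to 40791443), was at 601, 520 and 614 CPM in WT and 355, 322 and 362 CPM in SCR. It was 40.1% lower (log2 fold change -0.74 ± 0.11 SE, edgeR adjusted p 0.00724, n = 3 each), and replicate 5 was the lowest library of both groups.

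PIM2, a serine/threonine kinase that promotes survival of blood cells, was at 322, 281 and 267 CPM in WT and 211, 191 and 210 CPM in SCR (29.8% lower, edgeR adjusted p 0.0145). SPTLC2, a subunit of the serine palmitoyltransferase that starts sphingolipid synthesis, was at 200, 204 and 248 CPM in WT and 154, 155 and 160 CPM in SCR (28.1% lower, edgeR adjusted p 0.0435). SPTLC2 missed the threshold when the 6 libraries were fitted alone (adjusted p 0.0606, against a range of 0.0012 to 0.0606 for the 19 genes in that fit).

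LTB, lymphotoxin beta, a cytokine of the TNF family (ENSG00000227507, chromosome 6, from 31548302 to 31550299 of GRCh37) whose promoter is printed above, was at 350, 346 and 405 CPM in WT and 236, 213 and 217 CPM in SCR. The SCR libraries were 39.4% lower by the fit and did not reach the WT range (log2 fold change -0.72 ± 0.12 SE, edgeR adjusted p 0.00885). PSTPIP2, a membrane-bending adaptor protein of macrophages, was at 134, 144 and 162 CPM in WT and 102, 97.7 and 99.5 CPM in SCR (31.9% lower, edgeR adjusted p 0.0495).

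Of the lower genes that act at membranes and junctions, AP1B1, a subunit of the clathrin adaptor AP-1, was 29.0% lower (means 293 ± 21.6 and 208 ± 13.5 CPM, SD, n = 3 each, edgeR adjusted p 0.0292), and JUP, the junction protein plakoglobin, was 35.5% lower (means 54.5 ± 1.17 and 35.2 ± 1.80 CPM, SD, n = 3 each, edgeR adjusted p 0.0492).

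Among regulators of transcription, OLIG1, a basic helix-loop-helix factor known from oligodendrocytes, was at 156, 156 and 148 CPM in WT and 84.2, 79.5 and 81.8 CPM in SCR. The SCR libraries varied by 2.39 CPM (SD) and were 46.6% lower (log2 fold change -0.90 ± 0.15 SE, edgeR adjusted p 0.00947). PBX3, a homeodomain factor, was at 871, 832 and 948 CPM in WT and 648, 613 and 667 CPM in SCR, a decrease of 27.3% (edgeR adjusted p 0.0140). It had the highest level of the 19 genes.

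The 3 long non-coding RNAs were all lower. LINC00926 (chromosome 15, from 57592563 to 57599967) was at 48.3, 48.2 and 51.9 CPM in WT and 25.2, 21.2 and 27.5 CPM in SCR, 50.2% lower by the fit (log2 fold change -1.01 ± 0.15 SE, edgeR adjusted p 0.00724). LRRC8D-DT, a transcript that diverges from the LRRC8D gene, was at 30.4, 32.5 and 36.1 CPM in WT and 17.3, 17.6 and 16.3 CPM in SCR (48.3% lower, edgeR adjusted p 0.00885). MIR1915HG, the host transcript of a microRNA, was at 20.4, 17.9 and 22.2 CPM in WT and 13.2, 10.4 and 11.3 CPM in SCR (42.6% lower, edgeR adjusted p 0.0183). No source states whether the counting used strand, so reads of overlapping genes on opposite strands cannot be told apart.

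A correction for the GC content of the last 500 bases of each transcript ended 5 calls, among them LTB (edgeR adjusted p 0.0662), AP1B1 (0.0549), JUP (0.0745) and PSTPIP2 (0.057), and gave 18 calls of which 33.3% were higher, against 21.1% without the correction. The corrected adjusted p of the 19 genes ran from 0.00142 to 0.0745. With the block and the correction together all 19 passed, and the count was 240 (145 higher and 95 lower). Across genes the log2 fold change and GC content had a Spearman correlation of -0.222, over genes that share the same 6 libraries.

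Other genes passed with the replicate block on all libraries and not in the fit without it. Of the 8 described here, MZT1 alone also passed with the block for WT and SCR with LPS alone (edgeR adjusted p 0.0173, against 0.0576 to 0.176 for the other 7), and MZT1, TCEA1, SNRPEP2, DUSP6, S100A4 and HLA-DRB1 passed by DESeq2 on all libraries (adjusted p 0.000667 to 0.0207). CCL8, a chemokine that attracts monocytes, was at 5.45, 5.43 and 1.76 CPM in WT and 15.01, 22.6 and 6.80 CPM in SCR. Replicate 6 was the lowest library of both groups, and SCR exceeded WT in all 3 pairs (blocked log2 fold change 1.80 ± 0.24 SE, edgeR adjusted p 0.00197, against 0.127 without the block). It rests on 18 to 325 counts per library.

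MZT1, a small protein of the centrosome that binds the gamma-tubulin complex, was at 23.2, 25.1 and 16.1 CPM in WT and 34.9, 48.5 and 34.9 CPM in SCR (blocked edgeR adjusted p 0.00600, against 0.0503). POLR2K, a subunit shared by the RNA polymerases, was at 34.2, 36.0 and 24.4 CPM in WT and 52.0, 62.7 and 41.0 CPM in SCR (0.0216, against 0.231). TCEA1, an elongation factor of RNA polymerase II, was at 156, 134 and 96.2 CPM in WT and 229, 220 and 171 CPM in SCR (0.0179, against 0.127). In these 3 genes replicate 6 was the lowest WT library, and each SCR library exceeded every WT library.

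DUSP6, a phosphatase that inactivates ERK kinases, was at 72.7, 77.7 and 60.3 CPM in WT and 104, 119 and 97.6 CPM in SCR (blocked edgeR adjusted p 0.0179, against 0.0770). S100A4, a calcium-binding protein, was at 839, 650 and 780 CPM in WT and 528, 514 and 537 CPM in SCR (0.00827, against 0.0738). HLA-DRB1, a chain of an MHC class II molecule, was at 120, 119 and 131 CPM in WT and 83.9, 79.9 and 91.4 CPM in SCR (0.00827, against 0.0563). DUSP6 was thus higher in SCR, and S100A4 and HLA-DRB1 lower, in all 3 pairs, and HLA-DRB1 may share reads with its near-identical paralogs. With the block and 1 library left out, between 4 and 21 genes passed, fewest without WT replicate 6 (4) and most without WT replicate 4 (21).

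**Figure D2:**
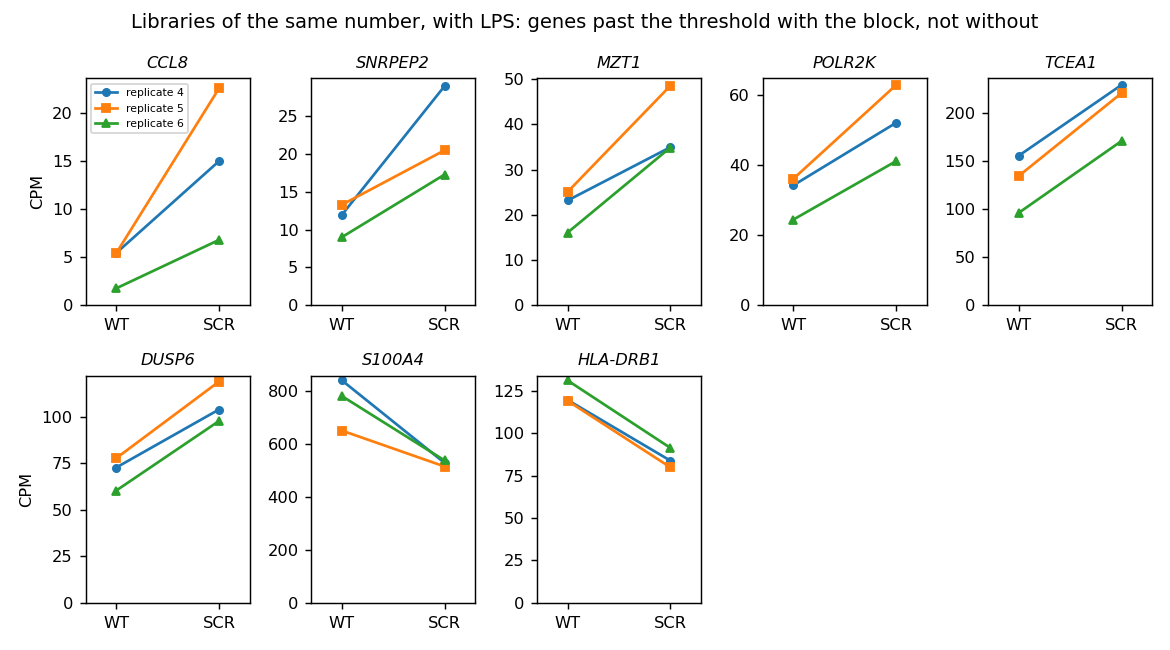
CPM of 8 genes past the threshold with the replicate block on all libraries and not without a block, with a line joining the WT and the SCR library of the same number with LPS (colours and symbols for replicates 4, 5 and 6, vertical axes from 0). All lines rise for CCL8, SNRPEP2, MZT1, POLR2K, TCEA1 and DUSP6 and fall for S100A4 and HLA-DRB1.

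The 135 calls with the block on all libraries divided by gene class. Of the 64 higher genes 47 were protein-coding and 15 were processed pseudogenes, whereas 62 of the 71 lower genes were protein-coding and 0 were processed pseudogenes. Processed pseudogenes were 8.50% of the genes tested, and over the 1418 tested the median log2 fold change without the block was 0.17. SNRPEP2, a copy of the gene of the splicing protein SNRPE, was at 12.0, 13.3 and 9.01 CPM in WT and 29.0, 20.5 and 17.3 CPM in SCR (blocked edgeR adjusted p 0.0179, against 0.148). The parent gene SNRPE averaged 164.6 CPM in WT and 211.8 CPM in SCR and did not pass (log2 fold change 0.36, edgeR adjusted p 0.286, and 0.0689 with the block). Reads of such copies may belong to their parent genes, so these calls are uncertain. Pseudogenes of all kinds held 10.0% to 10.2% of the counts in WT and 10.5% to 10.6% in SCR. The shares did not overlap, and with 3 libraries against 3 an exact permutation test cannot go below 0.1.

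The same contrast without LPS used 6 other libraries. Of the 19 genes, 15 had the same sign there, as had 58.0% of all genes, and 10 passed the threshold in the same direction, where 3.23% of all genes passed (1.78% higher and 1.45% lower). OLIG1 was lower in SCR in both states, and without LPS it was at 37.4, 33.5 and 30.3 CPM in WT and 20.8, 17.3 and 15.1 CPM in SCR (log2 fold change -0.92 without and -0.90 with LPS, difference 0.02 ± 0.21 SE). GDF15 was at 12.9, 16.4 and 22.8 CPM in WT and 47.8, 65.7 and 52.6 CPM in SCR without LPS (log2 fold change 1.66, edgeR adjusted p 1.47e-05). UBE2M overlapped between the groups without LPS, at 22.2, 27.2 and 23.7 CPM in WT and 24.2, 21.1 and 33.3 CPM in SCR, but the difference between the states did not pass (edgeR adjusted p 0.162). With the replicate block, 122 of the 135 genes had the same sign without LPS and 44 passed there in the same direction.

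**Figure D3:**
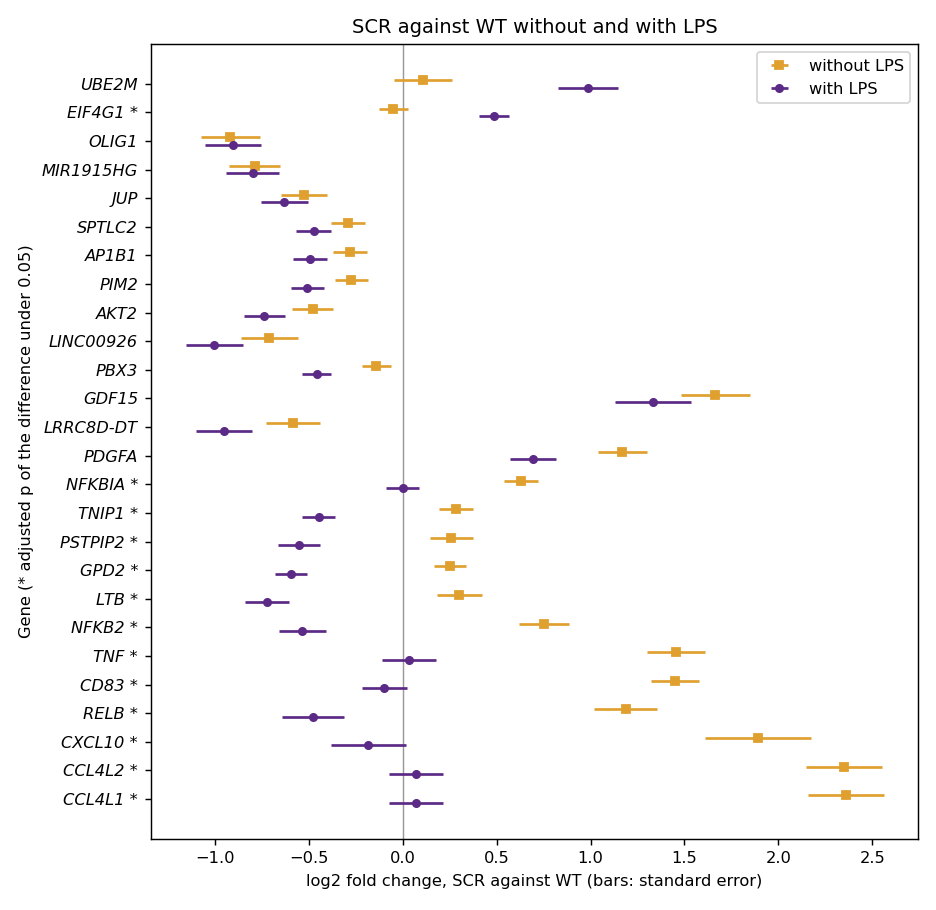
log2 fold change of SCR against WT without LPS (orange squares) and with LPS (purple circles), bars showing the standard error, for 17 of the 19 genes and for genes of the NF-kB response. An asterisk marks genes in which the 2 fold changes differed at an edgeR adjusted p under 0.05.

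Over all genes the fold change of SCR against WT differed between the states for 39 genes (0.234%), 36 of them with a lower fold change with LPS (0.216%). They include 4 of the 19: GPD2, LTB, PSTPIP2 and EIF4G1. GPD2 was raised by LPS from 183, 168 and 193 CPM to the values above in WT (log2 fold change 1.07, edgeR adjusted p 6.28e-09), and SCR without LPS was at 233, 207 and 205 CPM. The SCR libraries thus lay above WT without LPS and below WT with LPS, a difference of -0.85 between the 2 log2 fold changes (SE 0.12, edgeR adjusted p 0.00142). LTB without LPS was at 64.7, 60.8 and 71.1 CPM in WT and 84.8, 90.4 and 67.2 CPM in SCR, and its difference was -1.02 (SE 0.16, edgeR adjusted p 0.00487). PSTPIP2 without LPS was at 32.4, 31.7 and 31.0 CPM in WT and 35.2, 39.7 and 39.0 CPM in SCR (difference -0.81 ± 0.16 SE, edgeR adjusted p 0.0301). These 3 genes were induced by LPS in WT, and none of the 3 passed between SCR and WT without LPS (edgeR adjusted p 0.109 for GPD2, 0.173 for LTB and 0.240 for PSTPIP2). EIF4G1 had a higher fold change with LPS (difference 0.54 ± 0.11 SE, edgeR adjusted p 0.0425), and was at 183, 184 and 170 CPM in WT and 168, 176 and 175 CPM in SCR without LPS. Of the 19 genes, 7 were raised and 5 lowered by LPS in WT at an adjusted p under 0.05, where 7.01% and 7.26% of all genes were.

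A list of 30 NF-kB targets, of which 25 were tested, had 0 genes past the threshold by edgeR with LPS, 2 lower with the replicate block (TNIP1 and NFKB2) and 2 lower by DESeq2 on all libraries, which called 0.747% of genes higher and 1.37% lower. DESeq2 on the libraries of the contrast gave 1 higher and 3 lower (2.14% and 2.79% of all genes with an adjusted p), and with the block for WT and SCR with LPS alone neither TNIP1 (edgeR adjusted p 0.0576) nor NFKB2 (0.0872) passed. At an unadjusted p under 0.05, 2 of the 25 were higher and 3 lower, where 6.73% and 6.97% of all genes were. The median log2 fold change of the list was 0.03 with LPS and 0.75 without, where 13 of the 25 were past the threshold and higher in SCR, as were 1.78% of all genes. The difference between the states passed for 8 of the 25, TNF, NFKBIA, NFKBIE, NFKB1, NFKB2, RELB, TNIP1 and CD83, each with a lower fold change with LPS, as had 0.216% of all genes. By DESeq2 on all libraries 12 of the 25 passed in that direction, where 0.51% of all genes passed (0.102% with a higher and 0.408% with a lower fold change with LPS).

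NFKB2, which encodes the p100 precursor of the alternative NF-kB pathway, was at 45.8, 46.1 and 52.5 CPM in WT and 32.8, 32.1 and 34.6 CPM in SCR with LPS (31.1% lower, blocked edgeR adjusted p 0.0427, against 0.0905). Without LPS the order was the opposite, 8.14, 10.2 and 9.25 CPM in WT and 16.1, 16.2 and 13.9 CPM in SCR (log2 fold change 0.75, edgeR adjusted p 0.00311), and the difference was -1.29 (SE 0.18, edgeR adjusted p 0.00142). The blocked adjusted p of NFKB2 with the GC correction was 0.0827. RELB, the partner of the NFKB2 product, was at 414, 401 and 433 CPM in WT and 248, 309 and 337 CPM in SCR with LPS. The groups did not overlap, but SCR varied by 45.3 CPM (SD) and the test did not pass (edgeR adjusted p 0.229, and 0.0508 with the block). Without LPS, RELB was at 60.8, 103 and 77.1 CPM in WT and 174, 195 and 179 CPM in SCR (log2 fold change 1.19, edgeR adjusted p 0.000376).

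TNIP1, an adaptor that restrains NF-kB signalling, was at 327, 320 and 318 CPM in WT and 242, 221 and 244 CPM in SCR with LPS (26.8% lower, blocked edgeR adjusted p 0.0179, against 0.0503). TNF, the cytokine itself, was at 132, 153 and 137 CPM in WT and 129, 145 and 157 CPM in SCR, with overlapping groups (log2 fold change 0.03 ± 0.14 SE). Without LPS it was at 12.7, 18.7 and 16.2 CPM in WT and 46.9, 47.9 and 35.1 CPM in SCR (log2 fold change 1.46, edgeR adjusted p 9.44e-06). NFKBIA, the inhibitor that NF-kB itself induces, averaged 1383 ± 56.3 CPM in WT and 1382 ± 71.9 CPM in SCR with LPS (SD, n = 3 each). IL1B, which encodes the cytokine interleukin 1 beta, was at 32.0, 36.4 and 19.4 CPM in WT and 43.2, 56.6 and 34.4 CPM in SCR and did not pass (edgeR adjusted p 0.235, and 0.0520 with the block).

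**Figure D4:**
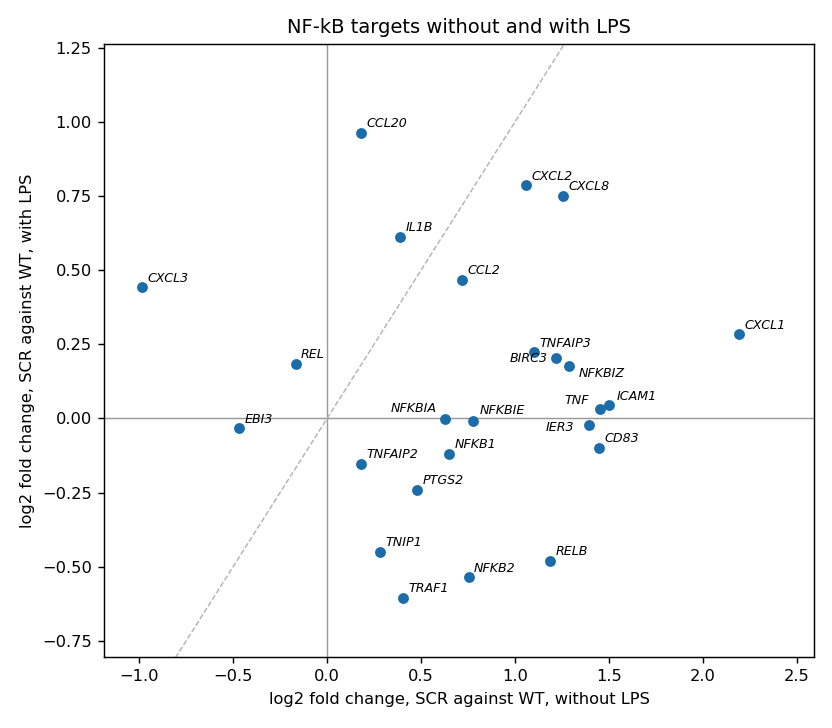
log2 fold change of SCR against WT without LPS (horizontal) and with LPS (vertical) for the 25 NF-kB targets tested, with a dashed line where both are equal. Nearly all points lie to the right of 0, while on the vertical axis they spread to both sides of 0, with NFKB2, RELB, TNIP1 and TRAF1 the lowest.

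The other lists are described by their counts. The integrated stress response, in which phosphorylation of eIF2 alpha favours translation of ATF4, had 32 genes tested: GDF15 passed without the block, GDF15 and MTHFD2 passed with it, and 3 passed by DESeq2 on all libraries, all higher. Of all genes with an adjusted p, DESeq2 on all libraries called 0.747% higher and 1.37% lower. DESeq2 on the libraries of the contrast gave 5 higher and 1 lower of this list (2.14% and 2.79% of all genes with an adjusted p). Before adjustment, at p under 0.05, 10 were higher and 3 lower, where 6.73% and 6.97% of all genes were, and the median log2 fold change was 0.08. MTHFD2, a mitochondrial folate enzyme, was at 185, 184 and 142 CPM in WT and 213, 236 and 206 CPM in SCR (blocked edgeR adjusted p 0.0448, against 0.159 without and 0.0939 with the block for these 2 groups alone). STC2, a secreted glycoprotein of the same list, was at 8.85, 8.19 and 9.21 CPM in WT and 14.1, 18.8 and 12.5 CPM in SCR and did not pass (edgeR adjusted p 0.0981, and 0.0527 with the block).

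Of the 38 translation initiation factors, EIF4G1 passed, and 11 were higher and 0 lower at p under 0.05 before adjustment (6.73% and 6.97% of all genes, median log2 fold change of the list 0.06). Of the 29 genes of the NEDD8 pathway, UBE2M passed, and 3 were higher and 0 lower (median 0.13). By DESeq2 on all libraries, the difference between the states passed for 1 of the 29 with a higher fold change with LPS. With a lower fold change 0 passed (0.102% and 0.408% of all genes). In the AKT and mTOR pathway, with 34 genes tested, AKT2 passed. By DESeq2 on all libraries 3 genes were lower, as were 1.37% of all genes with an adjusted p. Before adjustment 2 were under 0.05 and higher and 5 lower (median -0.04). PIK3CD, a catalytic subunit of PI3K in leukocytes, was at 466, 486 and 527 CPM in WT and 342, 352 and 373 CPM in SCR (27.8% lower, blocked edgeR adjusted p 0.0216, against 0.0561 without and 0.0576 with the block for these 2 groups alone). Of the 25 genes of glycolysis and the glycerol phosphate shuttle only GPD2 passed by edgeR (median 0.03). DESeq2 on the libraries of the contrast gave 6 higher and 0 lower translation initiation factors and 1 higher and 0 lower NEDD8 pathway genes. It gave 0 higher and 4 lower genes of the AKT and mTOR pathway, and 1 higher and 2 lower of glycolysis and the shuttle. Of all genes with an adjusted p it called 2.14% higher and 2.79% lower.

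No gene of the cell cycle lists passed by edgeR without the block or by DESeq2 on all libraries. DESeq2 on the libraries of the contrast gave 4 higher genes of S phase and 1 of G2 and mitosis, where 2.14% of all genes with an adjusted p were higher. The 30 S phase genes had a median log2 fold change of 0.13, with 6 higher and 0 lower at p under 0.05 before adjustment (6.73% and 6.97% of all genes), and SLBP, which binds the stem loop of histone mRNAs, passed with the block on all libraries. SLBP was at 30.6, 40.6 and 22.6 CPM in WT and 50.7, 64.3 and 35.6 CPM in SCR (blocked edgeR adjusted p 0.0319, against 0.203 without and 0.0846 with the block for these 2 groups alone). The 30 genes of G2 and mitosis had a median of 0.19, with 7 higher and 0 lower at p under 0.05 before adjustment, against the same shares of all genes, among them CENPF, a kinetochore protein, at a log2 fold change of 0.33 (edgeR adjusted p 0.206).

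The systems that handle double-stranded RNA gave 0 calls by edgeR, with or without the block, and 0 by DESeq2 on all libraries. DESeq2 on the libraries of the contrast gave 1 lower interferon response gene, 1 higher gene of the RNA interference machinery and 0 sensors. Of all genes with an adjusted p it called 2.14% higher and 2.79% lower. Among the 30 interferon response genes, 1 was higher and 6 were lower at an unadjusted p under 0.05 (6.73% and 6.97% of all genes), and the median log2 fold change was -0.08. Of the 21 nucleic acid sensors 0 were higher and 3 lower at p under 0.05 before adjustment, and of the 23 genes of the RNA interference machinery 2 were higher and 1 lower. CXCL10, a chemokine of the interferon list, was at 289, 318 and 305 CPM in WT and 295, 255 and 253 CPM in SCR with LPS, and at 3.73, 0.545 and 2.49 CPM in WT and 7.73, 10.8 and 8.93 CPM in SCR without (log2 fold change 1.89, edgeR adjusted p 0.000615).

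Among the 57 cytosolic ribosomal proteins 0 passed by edgeR without the block and 0 by DESeq2 on all libraries. DESeq2 on the libraries of the contrast gave 1 higher. At p under 0.05 before adjustment 8 were higher and 1 lower, where 6.73% and 6.97% of all genes were. RPL30 was higher with the block (edgeR adjusted p 0.0427, against 0.267 without and 0.174 with the block for these 2 groups alone). By edgeR, with and without the block, 0 genes passed among 23 p53 targets, 22 of cholesterol synthesis, 34 of the lysosome, 22 heat shock and chaperone genes, 13 of the mitochondrial genome, 17 monocyte markers and 4 markers of other cell types. DESeq2 on all libraries gave 1 higher p53 target and 0 in the other 6 of these lists. Of all genes with an adjusted p it called 0.747% higher and 1.37% lower. On the libraries of the contrast it gave 1 higher p53 target, 1 higher heat shock gene, 1 lower gene of cholesterol synthesis, 1 higher and 1 lower gene of the lysosome, and 0 in the other 3 lists. At an unadjusted p under 0.05 the numbers of higher and of lower genes were 2 and 1 for p53 targets, 1 and 1 for cholesterol synthesis, 3 and 3 for the lysosome, 4 and 1 for heat shock, 0 and 1 for monocyte markers, and 0 for the mitochondrial genome and for the markers of other cell types, whose 4 tested members had a median log2 fold change of -0.67. Over all genes tested 6.73% were higher and 6.97% lower at that p.

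**Figure D5:**
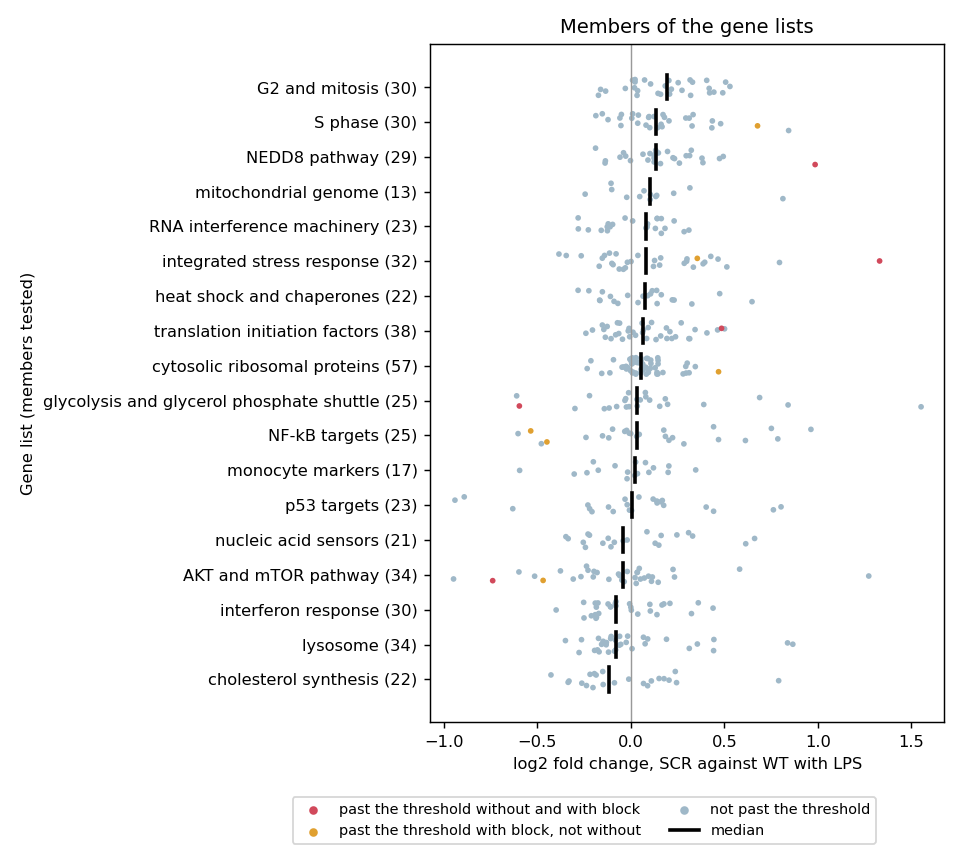
log2 fold change of SCR against WT with LPS for every member tested of 18 gene lists, without the 4 markers of other cell types (points; black bar, median; number tested in brackets), coloured by whether the member passed an edgeR adjusted p of 0.05. Medians of the lists plotted lie between -0.12 for cholesterol synthesis and 0.19 for G2 and mitosis.

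KD cells received an siRNA too, and their comparison with WT shares the WT libraries with the comparison of SCR. For GDF15 the KD libraries with LPS were at 19.7, 18.8 and 23.02 CPM, within the range of SCR or close to it. GPD2 was at 252, 246 and 225 CPM, LTB at 201, 203 and 194 CPM and OLIG1 at 79.1, 83.6 and 68.1 CPM in KD. PDGFA was at 83.6, 94.4 and 88.0 CPM in KD, between the ranges of WT and SCR, and PIM2 was at 161, 156 and 146 CPM, under the range of SCR. UBE2M was at 32.2, 35.6 and 34.2 CPM in KD, between WT and SCR. Between KD and SCR with LPS 0 genes passed by edgeR at an adjusted p under 0.05. TRAFD1, the target of the KD siRNA, did not pass either, though its KD and SCR ranges given above do not overlap. A count of 0 therefore does not show that KD and SCR were equal. DESeq2 was not run for KD against SCR.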

How the data were processed

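Gene-level read counts of 18 QuantSeq 3-prime libraries were deposited in one table. The authors removed low-quality, adaptor and poly-A sequence, aligned with HISAT to GRCh37 (Ensembl 75) and counted with featureCounts over the terminal 500 bases of each gene, and the values they deposited are raw counts. All columns were used (0 left out). Symbols and coordinates came from GENCODE v44lift37 on GRCh37 (55665 of 63677 IDs matched) and promoters from RefSeq.

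After filterByExpr, edgeR 4.0.16 (R 4.3.3) was used to fit group means over the 18 libraries jointly (TMM, quasi-likelihood F test, Benjamini-Hochberg over 16678 genes, threshold 0.05). Standard errors were taken as the fold change on the log2 scale over the root of F. DESeq2 1.42.0 was the alternative tool. Other alternatives were the replicate block, a GC correction (spline with 5 degrees of freedom), size factors, filters, the 6 libraries alone, and leaving out each library. Same-numbered WT and SCR libraries with LPS deviated together from their group means (correlations 0.261, 0.163 and 0.253, against -0.194 to -0.0094 for other numbers). The same-number values were all over 0.1, so blocked values are given where they change a call. Deviations from a group mean cancel within the group, so the negative values for other numbers follow in part from the positive ones. KD libraries with LPS did not pair with WT or SCR of the same number (-0.0875 to 0.0896), so the block was also fitted for WT and SCR with LPS alone. No pair of libraries within a group agreed within sampling noise (chi-square per degree of freedom 5.03 to 13.8). The fits were tested on simulated counts with known log2 changes of 1 and 0.5 in either direction. Without the block 82% and 25% of these changes were recovered, and with the block 83% and 26%. Smaller changes can thus be missed. The changed genes were all drawn from those above 5 CPM, so recovery at lower levels was not tested. The simulated counts held no effect shared by replicate number, so the block was not tested where such an effect exists.

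Named genes were drawn from all calls, the 10 smallest p-values per direction with the block, the top 5 of the difference between states and the 2 smallest p-values per list. Not every gene so selected is described. CXCL10, MTHFD2, RPL30, the targeted gene, SNRPE, IL1B, RELB, NFKBIA and TNF are named beside them, chosen with their values known. CXCL8, planned with TNF as a check of the LPS labels, did not pass between SCR and WT with LPS (log2 fold change 0.75, edgeR adjusted p 0.369). The comparison, gene lists and tests were chosen with earlier results of these data known. CCL3, CCL4, SOD2 and PECAM1 were not matched and not analysed here. Beyond their place in the counts, 2 of the 19 calls are not reported here.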

Additional observations from a re-analysis of the deposited data

Results flagged for a closer look

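The fold change of SCR against WT differed between cells with and without LPS for 39 genes by the edgeR interaction test at an adjusted p under 0.05. Among the genes named here, the difference, as the log2 fold change with LPS minus that without, was -0.85 for GPD2, -1.02 for LTB, -0.81 for PSTPIP2 and 0.54 for EIF4G1, all of which also differed between SCR and WT with LPS. In genes of the NF-kB response it was -0.73 for TNIP1, -1.29 for NFKB2, -1.67 for RELB, -1.55 for CD83, -1.42 for TNF and -0.63 for NFKBIA. The chemokine genes gave -2.08 for CXCL10, -2.28 for CCL4L2 and -2.29 for CCL4L1. The last 2 are near-identical copies whose reads may be shared, so their values are not independent. Of these 13 genes EIF4G1 alone had a positive difference.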

How the results depend on the processing

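Of the 19 calls with LPS, all 19 remained with DESeq2, with DESeq2 size factors, with no filter on low counts, with a mean CPM of at least 5 and with the replicate block, 18 with the 6 libraries alone and 14 with the GC correction, and no call reversed in any alternative. The number of calls depended more on the setting: 135 with the replicate block, 240 with the block and the GC correction, 593 without a filter (396 higher and 197 lower, the opposite balance), 45 at a mean CPM of at least 5, 196 with DESeq2 on all libraries, 465 with DESeq2 on the libraries of the contrast, 47 with edgeR on these libraries alone, and 0 to 16 with 1 library left out (0 without SCR replicate 5, 4 without SCR replicate 6, 5 without WT replicate 6). The paired count of 135 became 240 with the GC correction and, in alternatives chosen after seeing the data, 19 with the block for WT and SCR with LPS alone and 4 to 21 with 1 library left out. The 39 genes that differed between the states became 241 without a filter, 85 with DESeq2 on all libraries, 114 with DESeq2 on the libraries of the contrast, and 18 to 82 with 1 library left out (18 without unstimulated WT replicate 1 and 82 without unstimulated WT replicate 2). The blocked fit of that difference gave 41 genes. Leaving out a library removes residual degrees of freedom by construction, and otherwise the cause was not tested. Depth limits the lowest genes, such as CCL8 with 18 counts in its lowest library.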
